A study of Rattus norvegicus with 9 samples.

Results

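The genes described here are Trh, Sst, Crh and Ghrh, which encode 4 of the peptide hormones by which the hypothalamus controls the anterior pituitary. They were chosen by name: every probe set of the array whose annotation gives 1 of these symbols alone was taken. Each gene had 1 such probe set, so 4 of the 14217 genes named by a single symbol, and 4 of the 31042 probe sets tested, are described. The probe sets are 1368912_at (Trh), 1367762_at (Sst), 1369303_at (Crh) and 1387217_a_at (Ghrh).

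Expression was measured on Affymetrix arrays in the hypothalamus of 9 male rats aged 13 weeks, 1 array per rat. The 4 noodle-diet rats (numbers 1, 4, 7 and 13) ate a diet with 30% instant noodle by weight, seasonings included, in which fat gave 26% of the energy. The 5 control-diet rats (numbers 2, 5, 8, 11 and 14) ate, according to the series description, the same food without seasonings, so by that account noodles and fat were common to both groups. Feeding lasted 30 days by that description and 4 weeks by the growth protocol, with intake matched at about 60 g of diet per kg of body weight per day. The question is whether seasonings alter hypothalamic transcripts. Neither the strain nor the borders of the dissection is stated in the labels.

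Releasing and inhibiting hormones are made by small groups of neurons and reach the pituitary through the portal vessels of the median eminence. Thyrotropin-releasing hormone (Trh), made in the paraventricular nucleus, drives the release of thyrotropin and is itself restrained by thyroid hormone. Corticotropin-releasing hormone (Crh), from the same nucleus, drives corticotropin and so the adrenal glucocorticoids, which feed back on it. Growth hormone-releasing hormone (Ghrh), from the arcuate nucleus, and somatostatin (Sst), from the periventricular nucleus, push growth hormone release in opposite directions. Sst and Crh are also made by neurons outside the hypothalamus, among them cortical interneurons. In tissue of many cell types, fewer hormone neurons and less RNA per neuron cannot be told apart.

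Sst is a textbook gene of control by cyclic AMP and Trh one of control by thyroid hormone, and the start regions are shown as background. Control through these regions was not tested by the values below. RefSeq (build GRCr8) gave a start region for 3 of the 4 genes, Trh, Sst and Ghrh. Each line below runs from 100 bases before the annotated start to 25 bases after its first base inclusive, on the strand of the gene, which is chr4:126301738-126301862 (minus strand) for Trh, chr11:90461446-90461570 (plus strand) for Sst and chr3:166431856-166431980 (minus strand) for Ghrh. Capitals mark matches to the motifs searched.
Trh: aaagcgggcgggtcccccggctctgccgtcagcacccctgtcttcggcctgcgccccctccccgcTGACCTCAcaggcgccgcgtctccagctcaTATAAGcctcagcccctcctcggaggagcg
Sst: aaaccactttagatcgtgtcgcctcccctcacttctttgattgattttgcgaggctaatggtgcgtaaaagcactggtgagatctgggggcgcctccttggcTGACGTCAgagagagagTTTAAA
Ghrh: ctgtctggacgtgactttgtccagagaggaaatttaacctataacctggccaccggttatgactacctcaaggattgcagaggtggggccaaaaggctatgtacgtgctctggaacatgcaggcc

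The motifs were searched on both strands of windows of 300 bases, 250 before and 50 after the start. Sst held the full cyclic AMP response element TGACGTCA at bases 3 to 10 after its annotated start, a word found in 1.83% of 33469 such windows. Trh did not hold that word, but held its variant TGACCTCA at -35 to -28, found in 2.66% of windows. The variant overlaps the nuclear receptor word AGGTCA on the opposite strand at -35 to -30, a word found in 16.2% of windows. Of the TATA-like words, TATAAG lay at -5 to 1 in Trh (7.91% of windows) and TTTAAA at 20 to 25 in Sst (13.6%). TATAAA, found in 14.2% of windows, was in none of the 3 genes, and Ghrh held none of the words searched. Of the 3 windows that of Trh was the richest in G and C, at 66.0%, against 45.7% for Sst, 50.7% for Ghrh and a median of 51.7% over all windows. A match describes the letters and not the binding of a factor. All positions count from the annotated start, and whether transcription starts there was not tested.

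The 4 hormone genes fell into a pair whose deposited values moved between rats and a pair whose values hardly moved. Trh ranged over 0.60 log2 units across the 9 rats and Sst over 0.43. Crh ranged over 0.000588 and Ghrh over 0.000681. Over all probe sets, 29759 (95.9%) ranged over less than 0.01 and are called compressed here, 1223 (3.94%) ranged over more than 0.05 and are called variable, and 60 lay between. Among the variable probe sets Trh ranged further than 65.6% and Sst further than 43.3%. Among the compressed ones Crh ranged further than 61.0% and Ghrh further than 70.8%. How the authors summarized probes into these values was not given in the sources used, so a compressed value carries an order of rats at most, and its differences cannot be read as fold changes.

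**Figure D1:**
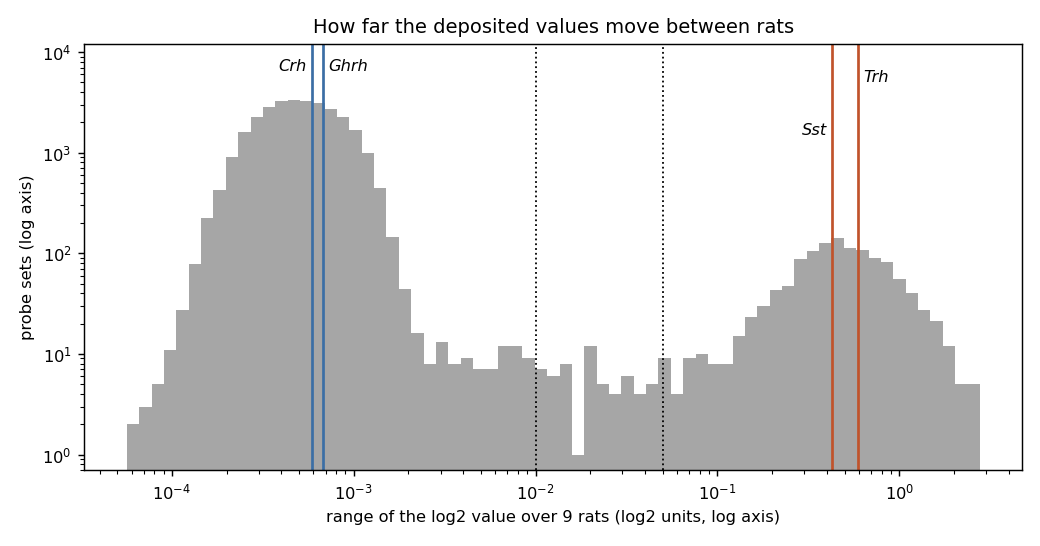
Number of probe sets (vertical, log axis) by the range of their log2 value over 9 rats (horizontal, log axis). Dotted lines mark 0.01 and 0.05 log2 units, and coloured lines the 4 hormone genes: Crh (0.000588) and Ghrh (0.000681) lie in the large compressed group, Sst (0.43) and Trh (0.60) in the small variable one.

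Trh, the thyrotropin-releasing hormone gene, measured 8.39, 8.99, 8.93 and 8.68 log2 units in noodle-diet rats 1, 4, 7 and 13. In control-diet rats 2, 5, 8, 11 and 14 it measured 8.74, 8.86, 8.98, 8.90 and 8.96. The noodle diet held both the lowest and the highest rat, and the controls lay inside that span. Trh averaged 8.75 ± 0.27 in noodle-diet rats, against 8.89 ± 0.097 in controls (SD, n = 4 and 5). The SD on the noodle diet was thus 2.81 times that of the controls, a ratio higher than in 95.7% of variable probe sets, whose median was 0.869. Without noodle-diet rat 1 the noodle-diet SD was 0.16, and without control-diet rat 2 the control SD was 0.056. The difference in spread was not tested.

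Sst, the somatostatin gene, measured 9.71, 9.69, 9.80 and 9.65 in noodle-diet rats 1, 4, 7 and 13. It measured 9.84, 9.61, 10.03, 9.88 and 9.80 in control-diet rats 2, 5, 8, 11 and 14. Here the spread ran the other way: the controls held the highest rat, number 8, and the lowest, number 5, and the noodle-diet rats lay between them. Sst averaged 9.71 ± 0.062 in noodle-diet rats, against 9.83 ± 0.15 in controls (SD, n = 4 and 5). Its SD on the noodle diet was 0.403 times that of the controls. Single rats moved that ratio too: the noodle-diet SD was 0.029 without rat 7, and the control SD 0.10 without rat 5. All 4 noodle-diet rats were below the control mean, and in 15 of the 20 pairs of a noodle-diet and a control-diet rat the noodle-diet rat was lower.

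Crh, the corticotropin-releasing hormone gene, measured 6.36650, 6.36663, 6.36681 and 6.36655 in noodle-diet rats 1, 4, 7 and 13. In control-diet rats 2, 5, 8, 11 and 14 it measured 6.36652, 6.36674, 6.36671, 6.36662 and 6.36709. Control-diet rat 14 was the highest and noodle-diet rat 1 the lowest, and the groups overlapped. Ghrh, the growth hormone-releasing hormone gene, measured 6.93195, 6.93238, 6.93205 and 6.93238 in noodle-diet rats 1, 4, 7 and 13. In control-diet rats 2, 5, 8, 11 and 14 it measured 6.93247, 6.93243, 6.93179, 6.93205 and 6.93187. For Ghrh the noodle-diet values lay inside the span of the controls.

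**Figure D2:**
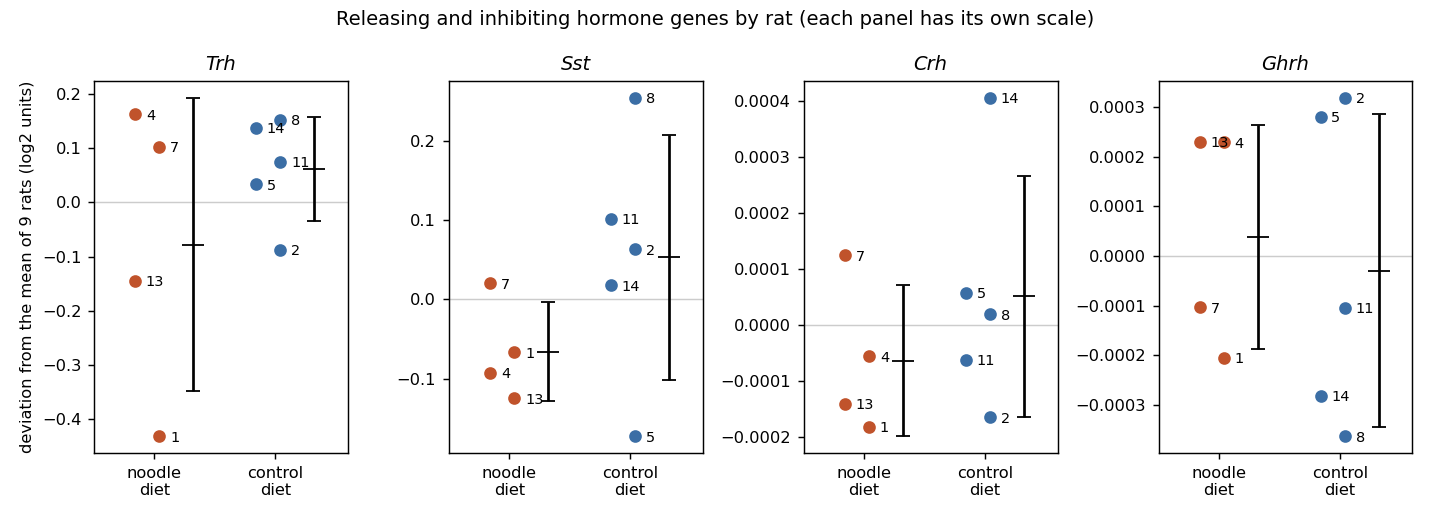
Deviation of each rat from the mean of the 9 rats (log2 units), with noodle-diet rats left and control-diet rats right in each panel, rat numbers beside the points, and bars for the mean ± SD of each diet. Each panel has its own scale: Trh and Sst span 0.60 and 0.43 log2 units, Crh and Ghrh less than 0.001, and the diets overlap in all 4 panels.

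None of the 4 genes differed between the diets beyond the spread of the rats. The test was limma's moderated fit with a trend on intensity, 2-sided and adjusted by Benjamini-Hochberg over the whole array. It called 0 of 31042 probe sets at 0.05 (0%), and gave each hormone gene an adjusted p that rounds to 1. Without adjustment 712 probe sets (2.29%) lay under 0.05, with 0 of the 4 hormone genes among them. The diets did not overlap in 0.567% of all probe sets and in 0.0818% of the variable ones, and overlapped in all 4 hormone genes.

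Trh differed by -0.14 log2 units, noodle diet minus control (SE 0.12), with a 95% interval of -0.42 to 0.14. On a linear scale, if the deposited log2 values are taken as they stand, that is a level 9.29% lower (written -9.29%), with bounds at -25.5% and 10.4%. An exact 2-sided permutation test over all 126 splits of the rats gave p = 0.333, where the smallest possible is 0.0159, and limma gave 0.285 without adjustment. Noodle-diet rat 1 carried most of the Trh difference: without it the difference was -0.022. Without noodle-diet rat 4, the highest of the 9, it was -0.22.

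Sst differed by -0.12 log2 units (SE 0.079), with a 95% interval of -0.30 to 0.063, or -18.8% to 4.49% on a linear scale. The exact permutation test gave p = 0.206, and limma 0.170 without adjustment. The difference was negative in all 9 fits that leave out 1 rat. It was largest without control-diet rat 5, at -0.18 with an unadjusted limma p of 0.0179, and smallest without control-diet rat 8, at -0.068. In no such fit was the adjusted p under 0.05. Of the 1223 variable probe sets, 81.1% differed less between diets than Sst and 85.5% less than Trh, and 76 had a lower p than Sst.

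The compressed pair gave differences of -0.000115 for Crh (SE 0.00012, limma p = 0.368, exact permutation p = 0.429) and 6.76e-05 for Ghrh (SE 0.00018, limma p = 0.717, exact permutation p = 0.698). The 95% intervals were -0.000393 to 0.000163 for Crh and -0.000349 to 0.000484 for Ghrh. These intervals describe the deposited numbers and set no limit on a change of the transcript. Ghrh turned to -1.56e-05 without control-diet rat 8 and to -0.000116 after quantile normalization.

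**Figure D3:**
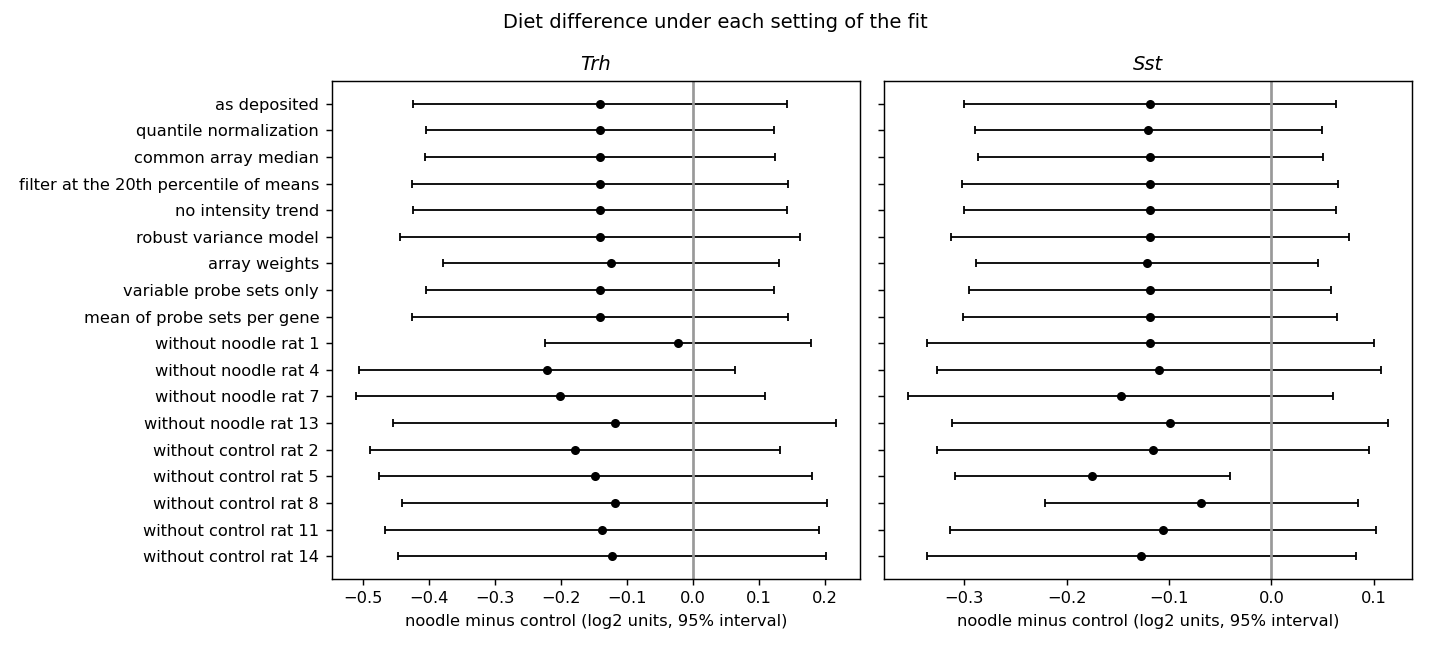
Difference between diets, noodle minus control (horizontal, log2 units, points with 95% intervals from limma), for Trh (left) and Sst (right) under each setting of the fit (rows). All points lie below 0; the Trh point moves to -0.022 without noodle-diet rat 1, and the Sst interval leaves out 0 only without control-diet rat 5.

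The hormone genes did not follow each other across rats at the adjusted threshold. Over the 6 pairs of members, with exact permutation tests on 9 rats and adjustment over the pairs, 0 pairs had an adjusted p under 0.05. Trh and Sst, the variable pair, had a Pearson r of 0.35 (exact permutation p = 0.354) and a Spearman rho of 0.30 (exact permutation p = 0.437). Without the 2 rats farthest from the Trh median r was 0.12, and with diet means removed it was 0.21.

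Trh and Crh gave the highest r of the 6 pairs, 0.61 (exact permutation p = 0.0936, adjusted 0.281), with a rho of 0.67. That r was 0.49 without the 2 rats farthest from the Trh median and 0.74 without the 2 farthest from the Crh median. Sst and Ghrh, the opposed pair of the growth hormone axis, had an r of -0.63 (exact permutation p = 0.0679, adjusted 0.281) and a rho of -0.48. It was -0.27 without the 2 rats farthest from the Sst median, -0.75 without the 2 farthest from the Ghrh median and -0.81 without control-diet rat 2. The negative sign of Sst and Ghrh held in the deposited scaling but not after quantile normalization (r = 0.12) or with a common array median (r = 0.018). Likewise Trh and Ghrh gave -0.093 as deposited, against 0.66 and 0.67 under those scalings. The 2 scalings shifted Ghrh by amounts spanning 0.012 and 0.0079 log2 units over the arrays, against its deposited range of 0.000681. The rescaled values of Ghrh therefore mostly follow the array shifts, so these r cannot check its relations. The adjusted p of the other 4 pairs ran from 0.482 to 0.838.

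Compressed values were set against variable ones to see whether they keep an order of rats. For 311 genes with a compressed and a variable probe set, the median over genes of r between such probe sets was 0.448 over the 9 rats, and 255 genes (82.0%) had a positive r. For 80 genes with several variable probe sets the median was 0.865, and for 4272 genes with several compressed ones it was 0.163. These are descriptions, since the probe sets share the arrays, and this comparison was added once the values were known. Neither Crh nor Ghrh has a variable probe set, so their own order could not be checked in this way.

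Among the receptors and enzymes of the thyrotropin axis no gene passed. Of 18 listed genes 16 had a named probe set, 13 higher and 3 lower on the noodle diet. Their median difference was 0.000112, against -4.62e-06 over all probe sets. Of the 16, 8 were compressed, so the size of their differences cannot be read. Of the 8 variable ones 1 was lower, against 48.1% of all variable probe sets. Tshb, Cga and Nmu, among the higher ones, all had noodle-diet rat 4 as their highest rat and control-diet rat 5 as their highest control. They should not be counted as separate. Pgpep1, also higher, differed by 0.020 (SE 0.043). Whether the 16 genes move independently of each other was not tested, and no set test was run. The receptor gene Trhr (the most variable of its 3 probe sets) was singled out for its role after its values were seen, and measured 7.55, 7.57, 7.54 and 7.53 in noodle-diet rats 1, 4, 7 and 13. It measured 7.53, 7.53, 7.38, 7.49 and 7.78 in control-diet rats 2, 5, 8, 11 and 14. The controls again held the highest and the lowest rat, and the difference was 0.0047 (SE 0.070). Trhr and Trh had an r of 0.052 across rats.

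The genes Tshb and Cga encode the 2 chains of thyrotropin, and Slco1c1 a thyroxine transporter of brain vessels. Tshb averaged 9.67 ± 0.89 in noodle-diet rats, against 8.86 ± 1.22 in controls (SD, n = 4 and 5; difference 0.81, SE 0.69). Cga differed by 0.40 (SE 0.33) and Slco1c1 by 0.14 (SE 0.082). The neuropeptide gene Nmu, expressed with Tshb in the pars tuberalis, differed by 0.47 (SE 0.36). Trh and Tshb had an r of -0.02 across rats.

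In the growth hormone axis 19 of 20 listed genes had a probe set, 9 higher and 10 lower, with a median difference of -1.18e-05, and 0 passed. All 5 somatostatin receptor genes (Sstr1 to Sstr5), the receptor genes Ghrhr and Ghsr and the growth hormone gene Gh1 were compressed. The variable members were those of the insulin-like growth factor system. The receptor gene Igf1r averaged 7.45 ± 0.15 in noodle-diet rats, against 7.41 ± 0.085 in controls (SD, n = 4 and 5). The ligand gene Igf2 averaged 8.89 ± 0.62 in noodle-diet rats, against 8.89 ± 0.80 in controls, and the binding protein genes Igfbp2 and Igfbp5 differed by -0.059 and 0.047.

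In the corticotropin and glucocorticoid axis 14 of 18 listed genes had a probe set, 7 higher and 7 lower, with a median difference of -2.23e-05, and 0 passed. The receptor genes Crhr1 and Crhr2 were not analysed here. Crhbp, which encodes a protein that binds and neutralizes Crh, was the 1 gene of the 7 pathway lists that limma placed under 0.05 without adjustment, at a compressed difference of -0.000252, and is named for that reason. The glucocorticoid-induced genes Sgk1 and Tsc22d3 differed by -0.19 (SE 0.13) and -0.080 (SE 0.12).

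The cell machinery behind the hormones gave no call either. Of 15 genes for the cutting, packing and release of peptides 14 had a probe set, 9 higher and 5 lower. Pcsk1n, an inhibitor of the prohormone convertase, averaged 10.47 ± 0.19 in noodle-diet rats, against 10.53 ± 0.034 in controls (SD, n = 4 and 5). The granule proteins Scg2 and Vgf differed by 0.058 and -0.060. Qpct, the glutaminyl cyclase that closes the ring at the first residue of Trh, differed by 0.059. Of 10 measured transcription factor genes that specify these neurons 5 were higher and 5 lower, and 1, Dlx1, was variable (difference -0.086). Of 21 genes of cyclic AMP signalling 8 were higher and 13 lower, with the variable members Fos at -0.057 and Prkacb at -0.0060. Of 21 measured genes of neighbouring peptides 12 were higher and 9 lower. In these 4 lists 0 genes had an unadjusted p under 0.05.

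Across rats, Trh was lower where Crym, the gene of a thyroid hormone-binding protein, was higher, a relation that did not pass after adjustment. Trh and Sst were each compared with all 33 variable genes of the 7 lists, 66 relations in all, added after the values had been seen. By exact permutation tests adjusted over the 66, 0 passed, and the smallest adjusted p, 0.0551, was that of Trh and Crym. Crym encodes mu-crystallin, which holds thyroid hormone in the cytosol, and is a known marker of tanycytes. It measured 9.35, 9.02, 8.76 and 9.24 in noodle-diet rats 1, 4, 7 and 13, and 9.12, 9.09, 8.83, 9.02 and 8.89 in control-diet rats 2, 5, 8, 11 and 14.

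Noodle-diet rats 1 and 13 and control-diet rat 2 were the lowest 3 for Trh and the highest 3 for Crym. The r was -0.86 (exact permutation p = 0.000835), the rho -0.78 (exact permutation p = 0.0172), and r with diet means removed -0.85. It was -0.79 without noodle-diet rat 1 and -0.64 without the 2 rats farthest from the Trh median, numbers 1 and 13 of the noodle diet.

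The other relations of Trh that had an unadjusted p under 0.05 all had an adjusted p of 0.292. Trh had a positive r with Pcsk1n (0.85, exact permutation p = 0.0224) and with the oxytocin gene Oxt (0.76, exact permutation p = 0.0160). Without noodle-diet rat 1 these were 0.34 and 0.41. Without the 2 rats farthest from the Trh median, which include rat 1, they were 0.14 and 0.80. The relation with Pcsk1n thus rests on rat 1, while that with Oxt depended on which rats were left out. The vasopressin gene Avp gave 0.65 (exact permutation p = 0.0527, adjusted 0.347). Its r was 0.18 without noodle-diet rat 1 and 0.74 without the 2 farthest rats. Trh had a negative r with Igf1r (-0.81), Npy (-0.72), Igfbp5 (-0.69), Pgpep1 (-0.67) and Igfbp2 (-0.66), of which Pgpep1 encodes a cytosolic enzyme that removes the first residue of Trh. Without noodle-diet rat 1 these too were nearer to 0, at -0.49 for Igf1r, -0.59 for Npy, -0.64 for Igfbp5, -0.47 for Pgpep1 and -0.51 for Igfbp2.

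None of the 33 relations of Sst passed, and only that with Tshb had an unadjusted p under 0.05. With Tshb its r was -0.70 (exact permutation p = 0.0332, adjusted 0.292) and its rho -0.67, and r was -0.53 without the 2 rats farthest from the Sst median. Next came Cga (-0.61), Igfbp5 (-0.61) and Nmu (-0.60), each with an adjusted p of 0.381 by the exact permutation test. Without the same 2 rats these were -0.39, -0.33 and -0.34. Control-diet rat 5, the lowest for Sst, had the highest Tshb of the controls, at 10.50.

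**Figure D4:**
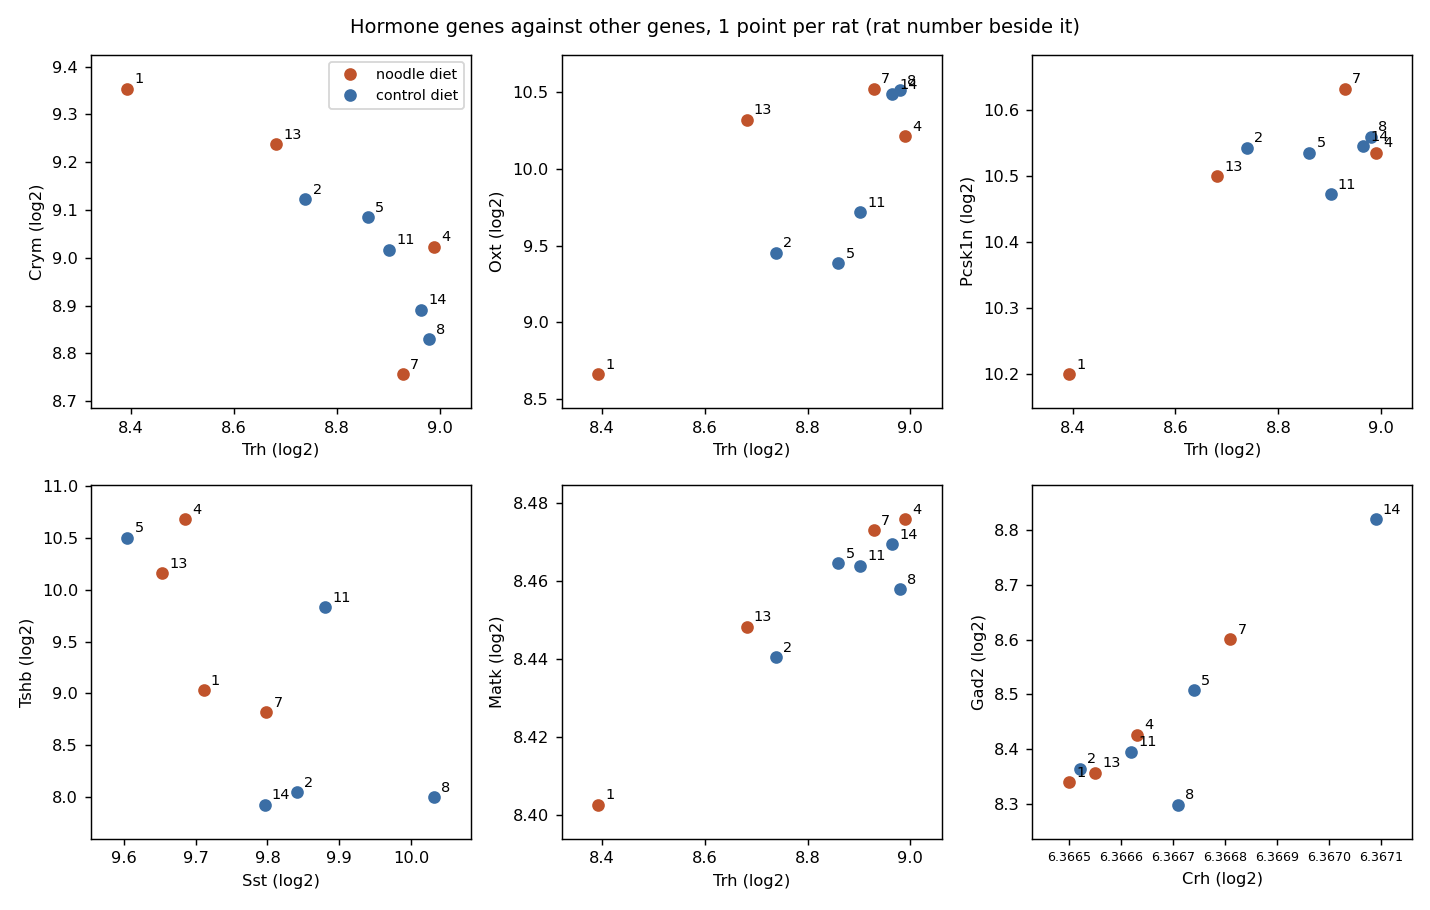
Values of a hormone gene (horizontal, log2 units) against another gene (vertical, log2 units) in 9 rats, noodle diet in orange and control diet in blue, with rat numbers. Trh is lower where Crym is higher, noodle-diet rat 1 stands apart in the panels of Oxt, Pcsk1n and Matk, and the Crh axis spans less than 0.001 log2 units.

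For 8 of 13 marker lists at least 2 variable members gave a score per rat: each such gene was centred on its own mean, and the centred values were averaged. Over the 16 relations 0 passed by the exact permutation test. Trh ran against the score of ependyma and tanycytes at r = -0.72 (exact permutation p = 0.0201, adjusted 0.280). That score held 3 variable of 6 measured markers, Rarres2, Crym and Vim, and the other 3 were compressed. Since Crym is among them, the score in part repeats the relation of Trh with Crym given above. Trh also ran against the score of meninges and fibroblasts (12 of 12) at r = -0.64 (adjusted 0.280). Its members include Igfbp2, whose relation with Trh is given above.

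The score of ependyma and tanycytes spanned -0.26 to 0.42 on the noodle diet and -0.40 to 0.24 on the control diet. The meningeal score spanned -0.47 to 0.67 on the noodle diet and -0.55 to 0.52 on the control diet. Noodle-diet rat 1, lowest for Trh, was the highest rat in both scores, and control-diet rat 14 was the lowest in both. The scores thus shared their extreme rats, and their relations with Trh should not be counted as separate. Without noodle-diet rat 1 r was -0.54 for ependyma and tanycytes and -0.41 for meninges. Without control-diet rat 8 the r with Trh was -0.85 for ependyma and tanycytes and -0.87 for meninges. Both then passed (exact permutation, adjusted p = 0.0288 each). The part of these cells in the Trh values was not tested.

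Trh had an r of 0.56 with the neuron score (4 variable of 8 measured), and with diet means removed 0.83 (permutation p = 0.0049, adjusted 0.0781). That permutation exchanged rats between diets after the diet means were removed, so its p is not exact and may be too small. With diet means removed the r was -0.75 for ependyma and tanycytes and -0.69 for meninges. Trh had 0.22 with the score of hypothalamic nuclei (8 variable of 15 measured). Sst had -0.68 with the score of pituitary and pars tuberalis (exact permutation p = 0.0415, adjusted 0.280). That score held 2 variable of 8 measured markers, Tshb and Cga alone, so it repeats their relations with Sst given above. Of 8 measured markers of cortex, hippocampus and amygdala, regions where Sst and Crh are also made, 0 were variable, so these values cannot follow such tissue between rats. The files give no background level, so presence of a marker could not be tested.

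The genes most like each hormone gene across the 9 rats were ranked among those with a variable probe set, 842 for Trh and Sst and 843 for Crh and Ghrh, and are given as a description. Trh was most like Matk, a kinase gene of blood cells and brain (r = 0.95), Selenom (0.93), the neuronal surface gene Thy1 (0.91), the synaptic dynamin gene Dnm1 (0.90) and Snhg11 (0.90). It was most unlike Acss3 (-0.89), Lhfpl6 (-0.88) and Rhoa (-0.88). Thy1 measured 9.73, 10.03, 10.01 and 9.91 in noodle-diet rats 1, 4, 7 and 13 and 9.84 to 9.98 in the controls. Matk and Thy1 gave 0.82 and 0.74 without noodle-diet rat 1, and Dnm1 0.65. In all, 21 genes lay above 0.8 and 19 below -0.8 for Trh.

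No gene reached 0.8 in either direction for Sst. Sst was most like Pxmp4 (0.72), Rlbp1 (0.72), Rnf138 (0.69), Abhd16a (0.65) and Ftcd (0.63). Without the 2 rats farthest from the Sst median, Abhd16a stood at -0.0023 and Rnf138 at 0.19. Its most unlike genes were Igfbp5 (-0.79, a further probe set of that gene), Ncor1 (-0.78) and the astrocyte gene S100b (-0.78). Without those rats Igfbp5 stood at -0.57, Ncor1 at -0.56 and S100b at -0.82. The astrocyte score, which includes S100b, had an r of -0.44 with Sst (exact permutation, adjusted p = 0.615), and -0.68 without those rats.

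The same ranking was applied to the compressed pair after the values had been seen. Crh was most like Gad2 (0.91) and Slc32a1 (0.89), which make and load the transmitter GABA, then Dlx1 (0.85), a factor of GABA neurons, Cbln2 (0.81) and Hpcal1 (0.81). It was most unlike Retsat (-0.85), Timp3 (-0.83) and Dkk3 (-0.81). Gad2 measured 8.34, 8.43, 8.60 and 8.36 in noodle-diet rats 1, 4, 7 and 13. It measured 8.36, 8.51, 8.30, 8.40 and 8.82 in control-diet rats 2, 5, 8, 11 and 14.

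Control-diet rat 14 was the highest rat for Crh, Gad2 and Slc32a1 alike. Without the 2 rats farthest from the Crh median the r of Gad2 was 0.47, that of Slc32a1 0.63 and that of Dlx1 0.094. Ghrh was most like Tmod2 (0.89), Rnf182 (0.86), Gse1 (0.86), Clcn3 (0.84) and Vof16 (0.84), and most unlike Klhdc2 (-0.95), Gabrg1 (-0.86) and Rab5a (-0.84). For Ghrh the values without the 2 farthest rats ran from 0.75 to 0.84 on the like side, and Klhdc2 stood at -0.92.

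**Figure D5:**
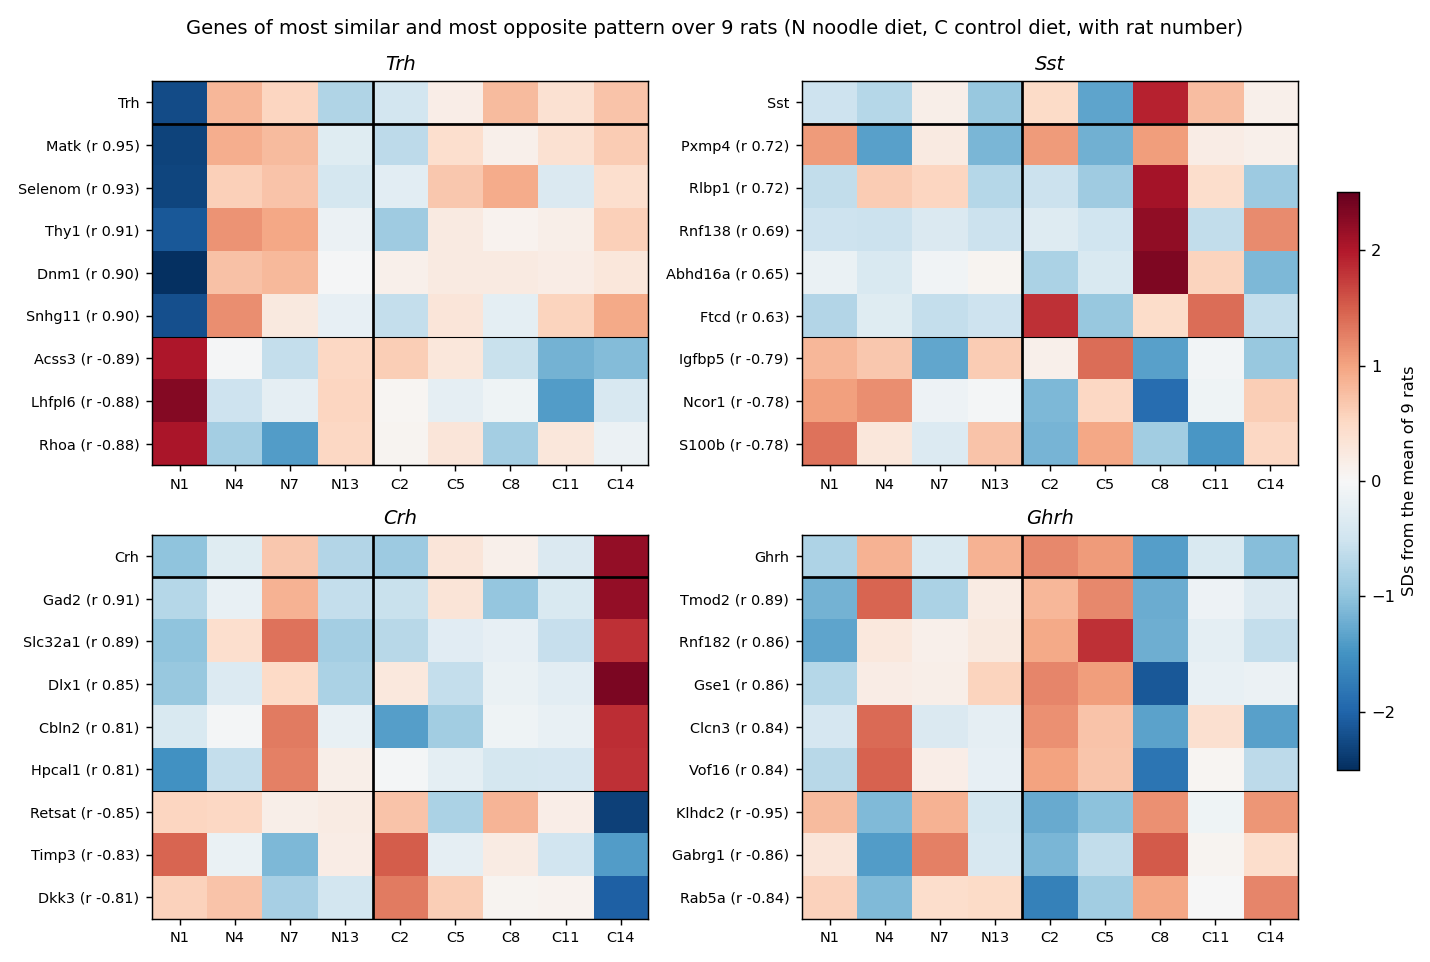
Each panel has 1 hormone gene in its top row, the 5 genes of most similar pattern below it and the 3 of most opposite pattern at the bottom; columns are rats (N noodle diet, C control diet) and colour is the deviation from the mean of 9 rats in SDs. Noodle-diet rat 1 is the extreme column for Trh, control-diet rat 8 for Sst and control-diet rat 14 for Crh.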

How the data were processed

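Per the labels' protocols, biotin-labelled cRNA was made from 100 ng of total RNA of each of 9 hypothalami. A table of 31099 probe sets on 9 arrays was deposited; the authors' values were taken as log2 from their range (5.13 to 13.7). How they were summarized and normalized was not given in the sources used. Array medians lay between 6.777 and 6.785 and correlations between arrays between 0.997 and 0.999, so the deposited log2 values were used without further scaling. The 57 control probe sets were left out.

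Probe sets were named from the platform annotation: 20826 had 1 symbol, 436 several and 9780 none. Diets were compared over all 31042 probe sets with limma 3.58.1 in R 4.3.3, and single values with exact permutation tests, both tested on simulated data. Groups and rat numbers came from sample titles. Since every array holds RNA of its own animal, the tests rest on the spread between animals, and the number of arrays limits the precision. The members and lists were chosen with earlier results of these data known. From each of 20 lists (7 of pathways, 13 of markers) up to 4 variable genes of lowest p were eligible to be named, beside the 5 most similar and 3 most opposite genes of each hormone gene; other genes named (Crym, Oxt, Pgpep1, Trhr, Crhbp and receptor genes) were chosen after their values were seen. Alternatives were other scalings, filters, variance models, array weights, means of probe sets and leaving out each rat.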

Additional observations from a re-analysis of the deposited data

Results flagged for a closer look

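Over the 4 hormone genes, the variable list genes eligible to be named and the marker scores, 122 groups of rats (each gene or score in each diet) were screened for 1 rat lying far from the others of its diet. The screen picked out 6, where chance gives about 6.1, and none of them was a hormone gene. In noodle-diet rat 1, the rat of lowest Trh, Avp measured 10.49, against 11.64 to 11.84 in the remaining rats of that diet, and the meningeal gene Lum stood at 7.659, with the others at 6.89 to 6.97. In control-diet rat 14, the rat of highest Crh, Vip stood at 6.146, with the others at 8.01 to 8.30, and Vgf at 9.723, with the others at 9.49 to 9.53. In control-diet rat 11 Pcsk1n stood at 10.47, with the others at 10.54 to 10.56. In control-diet rat 2 the neurofilament gene Nefh stood at 9.400, with the others at 9.55 to 9.57. Over all variable probe sets noodle-diet rat 1 was the lowest rat in 132 and the highest in 344, and control-diet rat 14 was the lowest in 306 of 1223 and the highest in 108.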

How the results depend on the processing

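Trh, Sst and Crh kept a negative difference, short of the threshold, in every alternative fit that holds them, and 0 probe sets were called in any of the 17, against 712 at an unadjusted p under 0.05 as reported, 127 after quantile normalization, 16 with a common array median, 7 among variable probe sets and up to 1155 without control-diet rat 14. With single rats left out the difference ran from -0.22 to -0.022 for Trh, from -0.18 to -0.068 for Sst, from -0.000177 to -2.6e-05 for Crh and from -1.56e-05 to 0.000155 for Ghrh. Ghrh turned negative after quantile normalization (-0.000116) and without control-diet rat 8. Crh and Ghrh drop out of the fit on variable probe sets.

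Of the 6 pairs of hormone genes, 1 passed after quantile normalization (Crh and Ghrh, r = 0.98) and 1 with a common array median (the same pair, r = 0.99). The common median shifts both genes of an array alike, by amounts spanning 0.0079 log2 units over the arrays. Quantile normalization shifted Crh over a span of 0.0047 and Ghrh over 0.012. All these spans exceed the deposited range of either gene. Leaving out single rats gave Trh and Sst an r of 0.21 to 0.47. Relations with marker scores that passed numbered 0 to 2 with single rats left out. Those with list genes numbered 0 to 1, and 1 after quantile normalization (Trh and Crym, adjusted p = 0.0458); Trh and Crym also passed without noodle-diet rat 4 (0.0196) or 7 (0.0229), in a range up to 0.900. No list gene passed between diets in any of the 3 alternatives. No paired analysis was run because the labels give no pairing, litter or batch.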
